A study of Mus musculus with 3 samples.

Results

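The ADAMTS genes encode secreted zinc proteases that cut proteins of the extracellular matrix. Transcripts of 10 of them, *Adamts1*, *Adamts2*, *Adamts4*, *Adamts5*, *Adamts6*, *Adamts9*, *Adamts10*, *Adamts12*, *Adamts15* and *Adamts20*, were followed across the cell populations of growing mouse long bone. The genes were chosen by symbol from the 55422 genes of the count tables, and each symbol matched 1 gene. The data are 3 droplet single-cell RNA sequencing (scRNA-seq) libraries from untreated C57BL/6 mice aged 3 weeks. Metaphyseal replicates 1 and 2 hold metaphysis cells of males after magnetic depletion of lineage-positive, CD45+ and CD117+ blood cells. The remaining library holds cells sorted for green fluorescence from femur and tibia of heterozygous male *Pdgfra-H2B-GFP* reporter mice. In these mice a nuclear GFP is made where *Pdgfra* is active. The study names the dissected part as the metaphysis in its methods and as metaphysis and epiphysis in its results. Whether the metaphyseal replicates came from separate animals is not stated. The p-values therefore measure how differences between populations vary among these libraries, a spread that may be technical.

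ADAMTS proteases are made as inactive precursors, are activated by furin-like convertases, and act outside the cell until they are blocked by TIMP3 or taken up by the receptor LRP1. ADAMTS1, ADAMTS4, ADAMTS5, ADAMTS9, ADAMTS15 and ADAMTS20 belong to the clade that cuts the large proteoglycans aggrecan and versican. ADAMTS2 removes the amino-terminal propeptide of fibrillar procollagens, ADAMTS6 and ADAMTS10 are linked to fibrillin microfibrils, and ADAMTS12 can cut the cartilage protein COMP. In the growth plate of long bones, cartilage matrix is removed at the front where vessels enter from the metaphysis.

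The unit throughout is the UMI, a tag that marks 1 captured RNA molecule, so that PCR copies are counted once. Levels are UMIs of a gene per 1000000 UMIs of all genes (CPM), summed over the cells of a population in a library. These tags are read at the 3′ end and carry no length, and levels are compared between populations for the same gene. Cells were placed in 8 populations by marker genes, none of which is an ADAMTS gene: chondrocytes, septoclasts (resorptive cells of mesenchymal origin at the cartilage front), metaphyseal stromal cells, marrow stromal cells, osteoblasts, fibroblasts, endothelial cells and mural cells (pericytes and smooth muscle cells). Of 15628 cells, 11442 fell in these populations. Sizes ran from 13 septoclasts and 17 mural cells in each metaphyseal library to 3103 marrow stromal cells in the *Pdgfra-GFP* library. Fibroblasts, 318 cells, came from the *Pdgfra-GFP* library alone, so no test was made for them. Values given 3 in a row are those of metaphyseal replicate 1, metaphyseal replicate 2 and the *Pdgfra-GFP* library, in this order.

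The libraries held 22082735 to 91747759 UMIs, and 7.24% to 9.92% of these lay in near-empty barcodes of at most 100 UMIs. The septoclast gate was checked on *Mmp9*, a matrix metalloproteinase gene, and *Fabp5*, the study's septoclast marker, neither of which it used. Among *Pdgfra-GFP* cells with 3, 4, 5 and 6 of the 6 septoclast markers, *Mmp9* stood at 2062, 5651, 11932 and 23007 CPM. *Fabp5* stood there at 288, 813, 2434 and 6165 CPM. In metaphyseal replicate 1 both rose from 3 to 5 markers. In metaphyseal replicate 2 the steps were uneven: *Mmp9* stood at 289, 4957, 10575 and 4679 CPM and *Fabp5* at 383, 91.2, 3017 and 156 CPM, from 12, 6, 6 and 1 cells. Endothelial and mural cells also passed their gates in the sorted library, at 306 and 68 cells. *Pdgfra* was at 3.77 and 2.52 CPM in them, against 104.8 CPM in marrow stromal cells, while the *H2B_GFP* transcript was at 147.7 and 966.4 CPM. Each test is therefore also given without that library where this matters. Cell barcodes shared between libraries numbered 0, 9 and 10 for the 3 pairs.

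UMIs of 9 of the 10 genes passed the filter on low counts and were tested. In the 8 populations *Adamts2* had 19017 UMIs, *Adamts5* 11822, *Adamts1* 6099, *Adamts9* 4724, *Adamts10* 3114, *Adamts4* 1127, *Adamts12* 701, *Adamts15* 396 and *Adamts6* 174. *Adamts20* had 2, a single UMI in chondrocytes and a single UMI in metaphyseal stromal cells of the *Pdgfra-GFP* library. In the largest sum, the 14450508 UMIs of osteoblasts in that library, its count of 0 allowed at most 0.208 CPM, taking 3 counts as the limit. The gene was not detectable beyond single molecules at this depth.

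**Figure D1:**
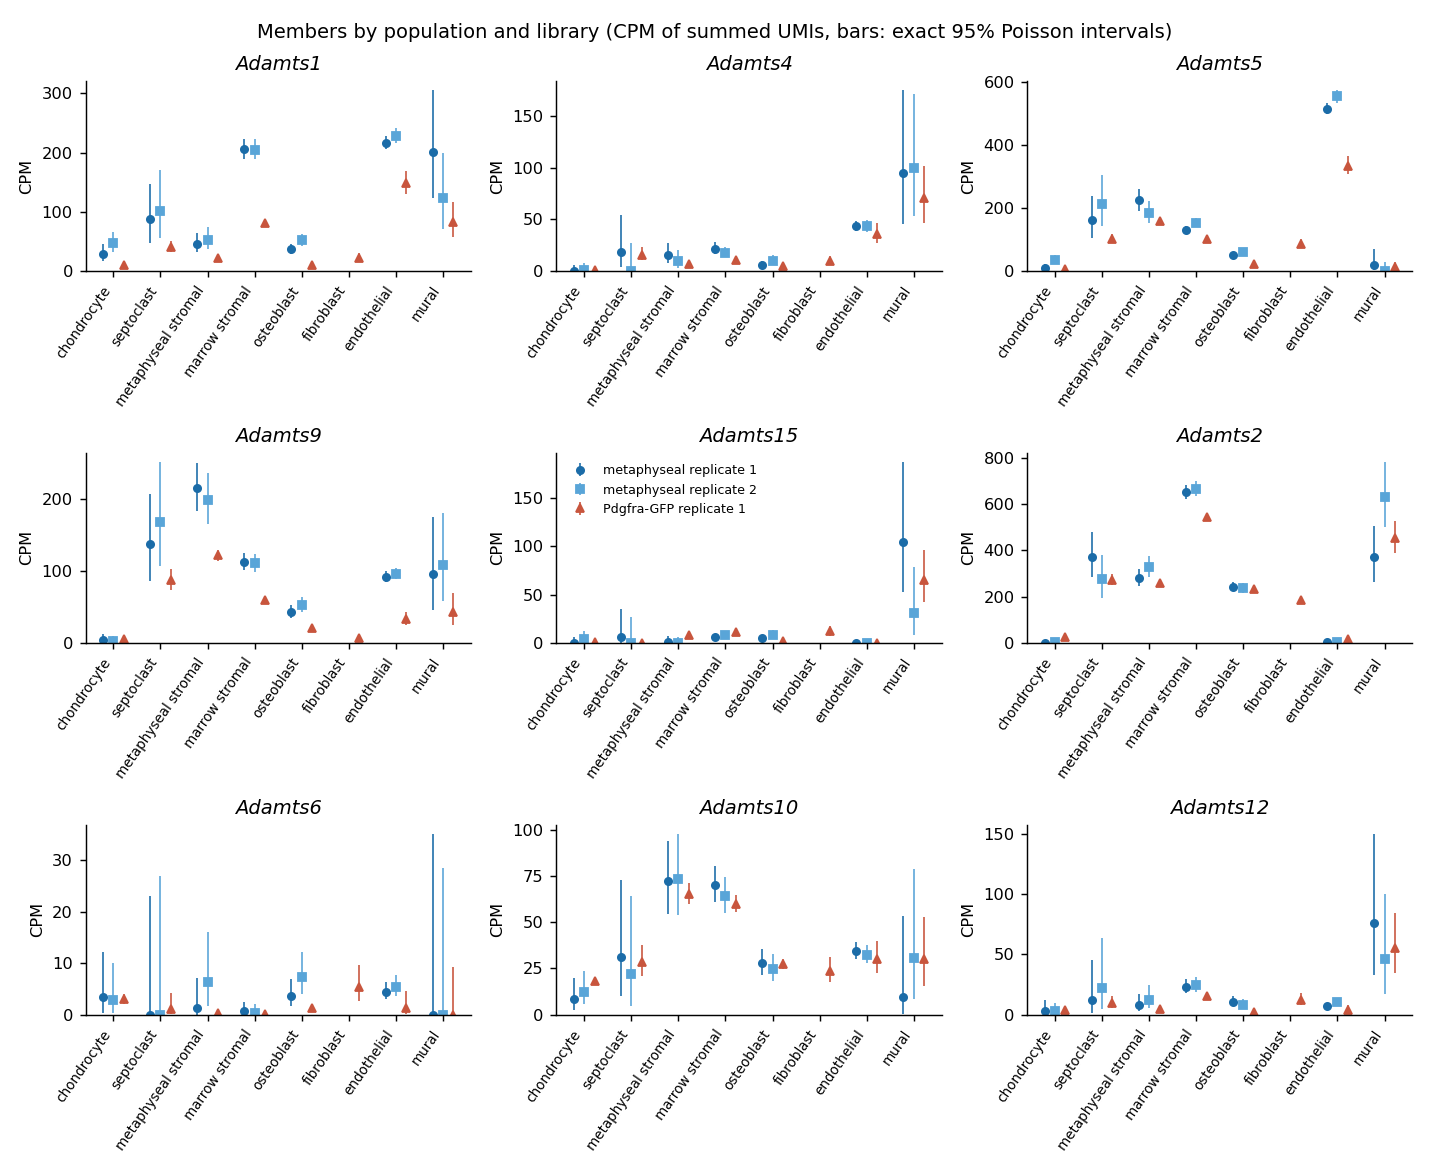
CPM of the 9 detected genes (y axis, linear, 1 panel a gene) in 8 populations (x axis); each point is 1 library and bars are exact 95% Poisson intervals, which cover counting error only. *Adamts5* reaches 334.4 to 554.0 CPM in endothelial cells, *Adamts2* 542.8 to 667.6 CPM in marrow stromal cells, and *Adamts4*, *Adamts12* and *Adamts15* are highest in mural cells in each library.

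The sums were compared in 1 edgeR model with library as a block, each population against the mean of the other populations. Over the 7 tested populations, 41 of 63 values of the 9 genes passed the threshold of 0.05 for the adjusted p, 27 higher and 14 lower. In marrow stromal cells 7 of the 9 were higher and 0 lower, where 25.1% of the 14874 genes tested were higher and 14.6% lower. In chondrocytes 1 was higher and 7 were lower, where 23.0% of genes were higher and 15.2% lower. In endothelial cells 4 were higher and 3 lower, beside 29.1% and 18.2% of genes. In mural cells 5 were higher and 1 was lower, beside 6.69% and 4.82%. In metaphyseal stromal cells 4 were higher and 2 lower, beside 11.1% and 4.40%. In osteoblasts 3 were higher and 1 was lower, beside 23.4% and 17.0%. In septoclasts 3 were higher and 0 lower, beside 7.31% and 3.44% of genes. The median log2 difference of the 9 genes was -1.41 in chondrocytes, where that of all genes was 0.06, and 0.79 in marrow stromal cells, where that of all genes was 0.12.

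The fitted values and CPM are on different scales. The model multiplies the UMI total of each sum by a TMM factor, which CPM does not use. The factors were 0.663, 0.645 and 0.482 in osteoblasts and ran from 0.753 to 1.33 in the other populations, so that fitted values set osteoblasts higher among the populations than their CPM does. Without scaling factors, an alternative chosen after seeing the data, 1 of the 9 genes was higher and 5 were lower in osteoblasts (*Adamts2* against *Adamts1*, *Adamts4*, *Adamts5*, *Adamts9* and *Adamts12*), in place of 3 and 1. In the other 6 populations each of the 9 genes kept its call and its direction, or stayed without a call. The median log2 difference of all genes in osteoblasts was then -0.88, in place of 0.01, and the share of calls that were higher was 12.7%, in place of 57.9%. That share also moved in chondrocytes (60.1% to 37.7%), septoclasts (68.0% to 88.1%), metaphyseal stromal cells (71.7% to 88.7%), marrow stromal cells (63.1% to 79.9%) and mural cells (58.1% to 85.4%). Calls of the 9 genes in osteoblasts are therefore given on both scales. Osteoblast log2 differences of other single genes are given with TMM factors alone and share this limit.

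**Figure D2:**
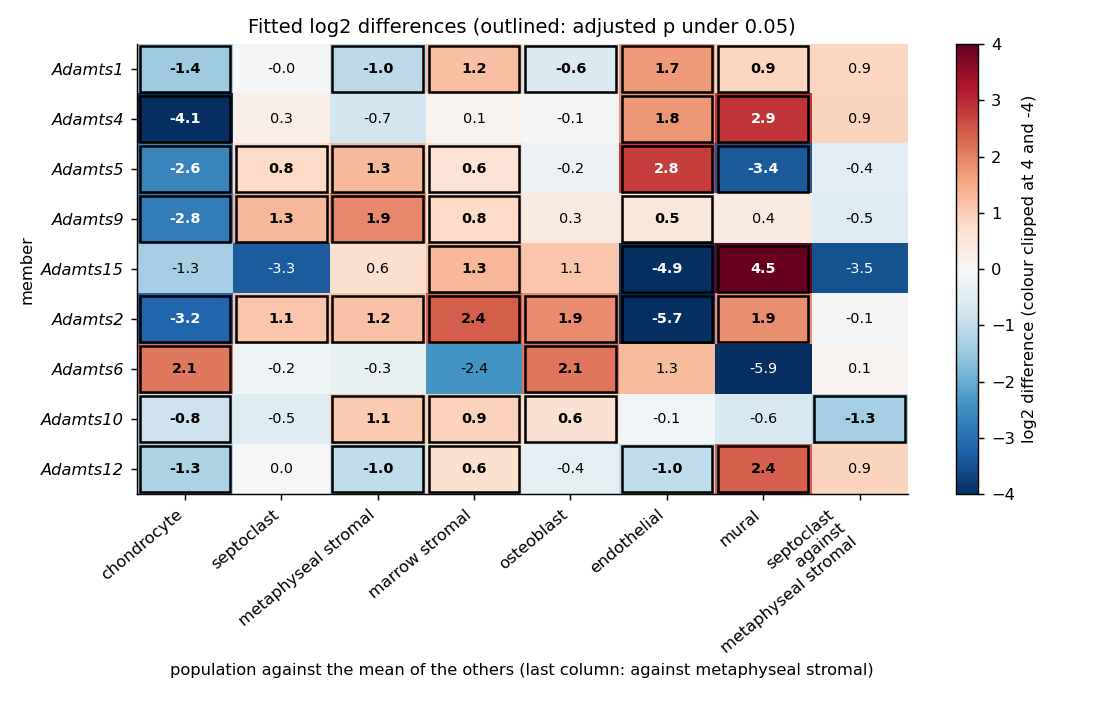
Fitted log2 differences of 9 genes (rows) for 7 populations against the mean of the others and for septoclasts against metaphyseal stromal cells (columns); outlined cells have an adjusted p under 0.05 and the colour scale stops at 4 and -4. The chondrocyte column is mostly blue (7 lower), the marrow stromal column mostly red (7 higher), and the mural column holds both the 4.50 of *Adamts15* and the -3.36 of *Adamts5*.

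*Adamts5* encodes the aggrecanase best known from cartilage breakdown, and lies on chr16:85856173-85901828 (minus strand, 8 exons; GRCm38 with Gencode M21, as for all positions here). Its level was highest in endothelial cells, at 514.5, 554.0 and 334.4 CPM (467.7 ± 117.1, SD, n = 3 libraries). These values stood above those of every other population in each library, and the ranges did not overlap. Metaphyseal stromal cells followed at 223.9, 184.6 and 159.2 CPM, septoclasts at 161.8, 211.5 and 102.7 CPM, and marrow stromal cells at 130.7, 152.7 and 102.0 CPM. The ranges of these 3 neighbours overlapped. Osteoblasts held 51.2, 61.0 and 21.5 CPM, chondrocytes 10.1, 34.6 and 7.15 CPM, and mural cells 2, 0 and 5 UMIs. The log2 difference was 2.77 ± 0.15 (SE) in endothelial cells (adjusted p = 1.544e-13), 1.30 ± 0.17 in metaphyseal stromal cells (adjusted p = 3.325e-06) and 0.80 ± 0.21 in septoclasts (adjusted p = 0.0138). It was 0.58 ± 0.17 in marrow stromal cells (adjusted p = 0.00905), -2.63 ± 0.27 in chondrocytes (adjusted p = 2.955e-08) and -3.36 ± 0.44 in mural cells (adjusted p = 4.416e-06). Without metaphyseal replicate 1 the septoclast and marrow stromal values were 0.86 and 0.61 and no longer passed (adjusted p = 0.0782 and 0.0702).

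Within the endothelium *Adamts5* followed the type of vessel. Endothelial cells were split by markers of arteries (*Gja4*, *Gja5*, *Sema3g*), metaphyseal capillaries (*Aplnr*, *Ramp3*) and marrow sinusoids (*Stab2*, *Mrc1*), and the levels are given without a test. Sinusoidal cells held *Adamts5* at 1366, 1407 and 1181 CPM. Capillary cells held it at 88.5, 79.8 and 44.5 CPM, and arterial cells at 12.7, 24.8 and 9.42 CPM. The exact 95% Poisson intervals of sinusoidal and capillary cells were far apart in each library, the closest pair being 1069 to 1301 CPM against 27.2 to 68.7 CPM in the *Pdgfra-GFP* library. The sinusoidal level was 15.4, 17.6 and 26.5 times the capillary level. Sinusoidal cells, 30.5%, 30.7% and 20.9% of endothelial cells, carried 74.9%, 74.1% and 77.1% of the endothelial *Adamts5* UMIs. Their median depth was 5484, 5682 and 5239 UMIs, against 6291, 6656 and 5568 UMIs in capillary cells.

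**Figure D3:**
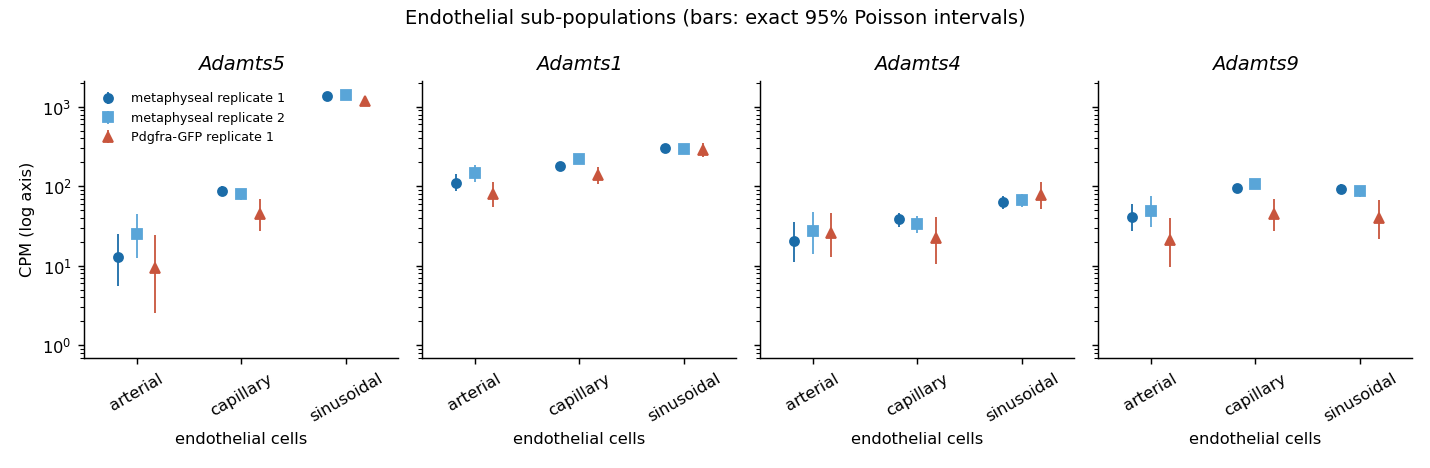
CPM on a log axis of *Adamts5*, *Adamts1*, *Adamts4* and *Adamts9* (panels) in arterial, metaphyseal capillary and sinusoidal endothelial cells (x axis); points are the 3 libraries and bars exact 95% Poisson intervals. *Adamts5* climbs from 9.42 to 24.8 CPM in arterial cells to 1181 to 1407 CPM in sinusoidal cells, while *Adamts9* is at 40.3 to 92.7 CPM in sinusoidal and 44.5 to 106.7 CPM in capillary cells.

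*Adamts1*, *Adamts4* and *Adamts9*, of the same clade, were less uneven among vessels, with sinusoidal levels 0.808 to 3.49 times the capillary ones. *Adamts15* had at most 1 endothelial UMI in a library and *Adamts20* none. *Adamts1* stood at 301.3, 291.6 and 288.0 CPM in sinusoidal, 177.9, 218.4 and 138.0 CPM in capillary and 111.5, 146.6 and 80.0 CPM in arterial cells, the same order in each library. *Adamts4* was at 62.9, 66.8 and 77.8 CPM in sinusoidal cells and 38.3, 33.5 and 22.3 CPM in capillary cells. *Adamts9* was at 92.7, 86.2 and 40.3 CPM in sinusoidal and 95.3, 106.7 and 44.5 CPM in capillary cells, with overlapping intervals in each library. Sinusoids held the highest *Adamts5*, *Adamts1* and *Adamts4* of the 3 vessel types in each library, and *Adamts9* did not separate sinusoids from capillaries beyond counting error.

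*Adamts1*, which encodes a versican- and aggrecan-cutting protease first described as induced by inflammation, is the direct neighbour of *Adamts5* on chromosome 16. It lies at chr16:85793827-85803113 on the same strand with 53059 bases between the genes. Endothelial cells held it at 216.2, 228.2 and 148.4 CPM, marrow stromal cells at 205.3, 204.7 and 81.4 CPM and mural cells at 200.1, 123.2 and 83.3 CPM. The ranges of these 3 populations overlapped over the libraries. Endothelial cells were the highest of the 3 in each library, while marrow stromal and mural cells changed order between libraries. These 3 populations were not tested against each other. Septoclasts held 87.1, 102.1 and 40.8 CPM, metaphyseal stromal cells 46.3, 53.2 and 21.5 CPM, osteoblasts 36.9, 51.6 and 9.76 CPM and chondrocytes 28.5, 47.0 and 10.2 CPM. The log2 difference was 1.70 ± 0.14 (SE) in endothelial cells (adjusted p = 3.264e-10), 1.21 ± 0.14 in marrow stromal cells (adjusted p = 1.829e-07) and 0.86 ± 0.24 in mural cells (adjusted p = 0.0209). The mural call was lost without metaphyseal replicate 1 (0.75, adjusted p = 0.214) and without the *Pdgfra-GFP* library (0.59, adjusted p = 0.2154). It was -1.41 ± 0.21 in chondrocytes (adjusted p = 4.667e-06), -1.04 ± 0.19 in metaphyseal stromal cells (adjusted p = 0.000268) and -0.57 ± 0.17 in osteoblasts (adjusted p = 0.0103). The osteoblast call was lost without metaphyseal replicate 1 (-0.57, adjusted p = 0.0816). Without scaling factors the osteoblast value was -1.43 (adjusted p = 2.472e-06) and that of metaphyseal stromal cells -0.85 (adjusted p = 0.00504), the order of their CPM.

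*Adamts1* also differed between cells of the same population. The *Pdgfra-GFP* library gave the lowest *Adamts1* level in 7 of 7 populations. It also gave the lowest *Adamts5* and *Adamts9* in 6 of 7 and the lowest *Adamts4* and *Adamts12* in 5 of 7, so that *Adamts1* was not alone in this. *Adamts2* and *Adamts6* were lowest there in 4, *Adamts10* in 3 and *Adamts15* in 2. Highest there were *Adamts2* and *Adamts15* in 2 populations each, and *Adamts6*, *Adamts9*, *Adamts10* and *Adamts12* in 1 each. How often genes of the whole series were lowest in this library was not counted. The same library had the lowest summed level of 12 immediate early genes (*Fos*, *Jun*, *Egr1* and others, which cells switch on within minutes of a stimulus such as enzymatic dissociation). In marrow stromal cells these 12 genes summed to 7720, 7021 and 2109 CPM. Sorting and reporter strain differ between the kinds of library, the dissected region may differ as well, and these cannot be told apart. The labels name Chromium V2/V3 for each library without saying which kit version was used for which, while the methods of the study name the V3 kit. The part of the kit version was not tested. Across populations, 12 of the 12 early genes were higher in chondrocytes (11 without scaling factors), beside 23.0% of all genes, and *Adamts1* was lower there. In metaphyseal stromal cells 0 were higher and 9 lower (0 and 7 without scaling factors), beside 11.1% and 4.40%, and *Adamts1* was also lower. In osteoblasts 9 early genes were higher and 0 lower, beside 23.4% and 17.0% of all genes, but 2 and 2 without scaling factors. In endothelial cells 4 were higher and 2 lower (5 and 2 without scaling factors), beside 29.1% and 18.2%. In marrow stromal cells 1 was higher and 3 lower (2 and 3 without), beside 25.1% and 14.6%. In mural cells and in septoclasts 0 were higher and 2 lower (0 and 0 without), beside 4.82% and 3.44% of genes lower. *Adamts1* was lower in osteoblasts, higher in endothelial, marrow stromal and mural cells, and without a call in septoclasts. Each population of at least 20 cells in a library was also split at its median share of immediate early gene UMIs into an upper and a lower group of cells, which gave 18 comparisons. *Adamts1* was higher in the upper group in 17 of them. Over the 17 comparisons with at least 20 *Adamts1* UMIs the exact 95% Poisson intervals were apart in 13, all with more *Adamts1* in the upper group, where 3.36% of 145452 gene and population pairs were apart in this direction and 3.08% in the other. Marrow stromal cells of the upper group held 297.2, 304.8 and 98.1 CPM, and those of the lower group 108.8, 97.4 and 65.1 CPM. Endothelial cells held 302.3, 331.3 and 209.0 CPM in the upper and 110.8, 113.0 and 62.3 CPM in the lower group. The fibroblasts were the exception, at 20.6 CPM in the upper and 25.0 CPM in the lower group. Median depth was close in some pairs of groups, such as 3627 and 3693 UMIs in marrow stromal cells of the *Pdgfra-GFP* library, but not in chondrocytes of metaphyseal replicate 1, with 20967 and 7799 UMIs, nor in endothelial cells of the *Pdgfra-GFP* library, with 5472 and 3542 UMIs. The part of the immediate early response in these levels was not tested.

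**Figure D4:**
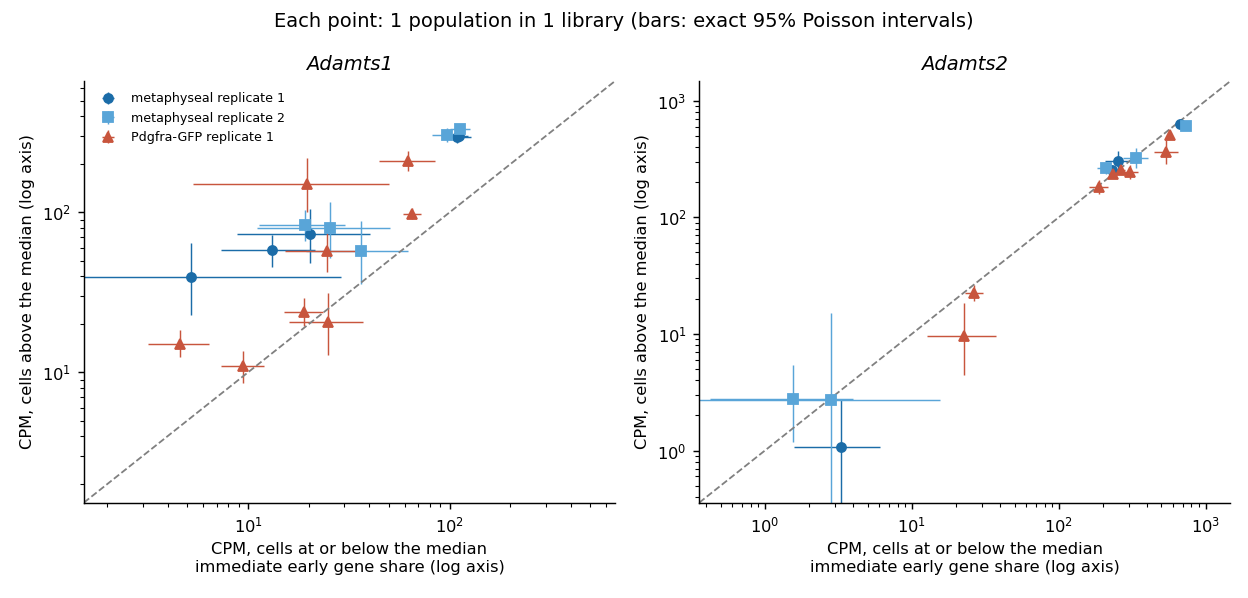
CPM in cells above (y axis) against cells at or below (x axis) the median immediate early gene share of their population, both on log axes, for *Adamts1* and *Adamts2*; each point is 1 population in 1 library, bars are exact 95% Poisson intervals and the dashed line marks equal levels. *Adamts1* lies above the line in 17 of 18 populations, whereas *Adamts2* lies close to the line in the populations where its level is high.

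The other genes had fewer comparisons with separate intervals. *Adamts4* intervals were apart with more in the upper group in 2 of 10 comparisons with at least 20 UMIs, both in endothelial cells, and *Adamts5* in 4 of 16 with 2 apart the other way. *Adamts2* and *Adamts10* were apart with less in the upper group in 2 of 14 and 2 of 15 comparisons, and with more in 0. *Adamts9* was apart upward in 1 of 14. The promoter of *Adamts1* is shown because this gene alone had intervals apart in most of its comparisons. It is given from 250 bases before the RefSeq start to the base before it (chr16:85803114-85803363, minus strand, GRCm38.p6), in lower case, with the cAMP response element core TGACG and the TATA box TATAAA in capitals.
Adamts1 promoter: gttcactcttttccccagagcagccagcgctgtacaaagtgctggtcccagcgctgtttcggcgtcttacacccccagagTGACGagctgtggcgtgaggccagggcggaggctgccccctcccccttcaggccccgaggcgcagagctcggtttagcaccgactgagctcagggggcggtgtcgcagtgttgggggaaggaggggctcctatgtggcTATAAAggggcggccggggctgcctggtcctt
The core lies 170 to 166 bases and the TATA box 32 to 27 bases before the start. Over 32851 promoters of this length, searched on both strands, 17.8% held TGACG, 12.4% held TATAAA and 6.75% the AP-1 motif TGANTCA, which these 250 bases do not hold. Of the other members with a promoter in the RefSeq table (*Adamts2*, *Adamts9*, *Adamts12*, *Adamts20*), *Adamts9* and *Adamts12* hold TGACG and none of the 4 holds TATAAA. Such matches describe the letters only.

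*Adamts4* (chr1:171250421-171260637, plus strand), the other aggrecanase of cartilage disease, was highest in cells of the vessel wall. Mural cells held it at 95.3, 100.1 and 70.7 CPM from 10, 13 and 28 UMIs, and endothelial cells at 43.5, 43.5 and 35.8 CPM. The ranges of these populations did not overlap with each other or with the next, marrow stromal cells at 21.8, 17.9 and 10.6 CPM. Chondrocytes held 0, 1 and 9 UMIs, the last among 13852989 UMIs or 0.650 CPM (0.297 to 1.23, exact 95% Poisson interval). The log2 difference was 2.86 ± 0.31 (SE) in mural cells (adjusted p = 2.094e-07), 1.76 ± 0.19 in endothelial cells (adjusted p = 2.222e-08) and -4.14 ± 0.39 in chondrocytes (adjusted p = 4.365e-09). These 3 calls held under each alternative that gave a value.

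*Adamts15* (chr9:30899155-30922452, minus strand), a versicanase of the same clade, had its highest level in mural cells. Mural cells held it at 104.8, 30.8 and 65.6 CPM (67.1 ± 37.0, SD, n = 3) from 11, 4 and 26 UMIs. The next levels were 11.85 CPM in fibroblasts and 5.71, 7.89 and 11.6 CPM in marrow stromal cells, and endothelial cells held 1, 1 and 0 UMIs among 1590745 to 6765623 UMIs. The mural log2 difference was 4.50 ± 0.56 (SE; adjusted p = 1.926e-06) and held under each alternative that gave a value. The marrow stromal difference of 1.34 ± 0.41 (adjusted p = 0.0106) was lost without the *Pdgfra-GFP* library (0.99, adjusted p = 0.1206) and became 2.06 without metaphyseal replicate 1. The endothelial difference of -4.86 ± 1.19 (adjusted p = 0.00147) was lost without metaphyseal replicate 1 (adjusted p = 1) and, from so few UMIs, depends on the prior count of the fit.

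Markers of other cells were also present in the mural sums. The 7 endothelial markers summed to 333, 239 and 116 CPM there against 8311, 7842 and 6532 CPM in endothelial cells, and the 5 marrow stromal markers to 419, 754 and 853 CPM against 30094, 29821 and 32461 CPM in marrow stromal cells. The 6 osteoblast markers summed to 47.6, 23.1 and 1193 CPM and the mural markers to 12652, 17804 and 13564 CPM. The 5 fibroblast markers summed to 266.8, 346.4 and 398.7 CPM, against 8794 CPM in fibroblasts of the *Pdgfra-GFP* library. The part of these other cells in the mural levels of *Adamts4*, *Adamts12* and *Adamts15* was not tested. After thinning every cell to 2000 UMIs, 3 of 17, 1 of 17 and 8 of 66 mural cells held an *Adamts15* UMI, and 0 of 7, 0 of 7 and 0 of 51 erythroid cells, which should lack the gene. Unthinned, the mural shares were 35.3%, 23.5% and 25.0%. The 0 of 51 cells allow a share of up to 6.98% (exact 95% binomial interval). Median depths before thinning were 6190, 7497 and 5485.5 UMIs in mural cells and 10024, 10662 and 8163 UMIs in erythroid cells.

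*Adamts9* (chr6:92772699-92943492, minus strand), a versicanase of many embryonic tissues, had its highest levels in the stroma next to the growth plate. Metaphyseal stromal cells held it at 214.9, 198.7 and 121.7 CPM and septoclasts at 136.9, 167.7 and 86.9 CPM, with overlapping ranges. Marrow stromal cells (112.9, 111.2 and 60.2 CPM), mural cells (95.3, 107.8 and 42.9 CPM) and endothelial cells (91.8, 96.2 and 32.7 CPM) followed, each overlapping the next. Osteoblasts held 43.0, 52.7 and 20.4 CPM, without a call (0.35, adjusted p = 0.0966), and were lower without scaling factors (-0.52, adjusted p = 0.0111). Fibroblasts, at 7.40 CPM, and chondrocytes, at 3.36, 2.77 and 5.99 CPM, were lowest. The log2 difference was 1.91 ± 0.15 (SE) in metaphyseal stromal cells (adjusted p = 6.816e-10), 1.31 ± 0.20 in septoclasts (adjusted p = 3.677e-05) and 0.79 ± 0.15 in marrow stromal cells (adjusted p = 0.000134). The marrow value was 0.41 when the fibroblast sum was left out (adjusted p = 0.0217). It was 0.45 ± 0.16 in endothelial cells (adjusted p = 0.0231), a call lost without metaphyseal replicate 1 (0.32, adjusted p = 0.2744) or 2 (0.33, adjusted p = 0.2204) and without the fibroblast sum (0.09, adjusted p = 0.6708). It was -2.79 ± 0.24 in chondrocytes (adjusted p = 1.339e-09) and -4.85 there without the *Pdgfra-GFP* library (adjusted p = 2.082e-12).

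*Adamts2* (chr11:50602084-50807573, plus strand), the procollagen N-propeptidase, was spread over the mesenchymal populations. Marrow stromal cells held it at 652.8, 667.6 and 542.8 CPM (621.1 ± 68.2, SD, n = 3) and mural cells at 371.6, 631.2 and 454.2 CPM, with overlapping ranges. Septoclasts (373.4, 277.1 and 274.2 CPM) and metaphyseal stromal cells (280.5, 328.5 and 261.1 CPM) overlapped each other and stood above osteoblasts at 241.8, 238.4 and 234.0 CPM. Osteoblasts were thus even among libraries, and fibroblasts were lower at 185.1 CPM. Endothelial cells held 2.07, 2.19 and 15.1 CPM and chondrocytes 0, 2.77 and 24.6 CPM. In the *Pdgfra-GFP* library erythroid cells held 22.8 CPM (11.4 to 40.8, exact 95% Poisson interval), an interval that holds both the endothelial and the chondrocyte level of that library, and these levels are not read as expression. The source of these UMIs was not tested.

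The log2 difference of *Adamts2* was 2.41 ± 0.26 (SE) in marrow stromal cells (adjusted p = 4.25e-08), 1.90 ± 0.26 in osteoblasts (adjusted p = 2.046e-06) and 1.85 ± 0.32 in mural cells (adjusted p = 0.000194). Without scaling factors the osteoblast value was 1.04 (adjusted p = 0.00251), below the 1.36 of metaphyseal stromal cells and the 1.42 of septoclasts, as in CPM and unlike in the scaled fit. It was -5.73 ± 0.48 in endothelial cells (adjusted p = 3.592e-10) and -3.17 ± 0.42 in chondrocytes (adjusted p = 1.178e-06; -6.41 without the *Pdgfra-GFP* library). In metaphyseal stromal cells it was 1.18 ± 0.29 (adjusted p = 0.00437), 2.06 without the *Pdgfra-GFP* library, and lost without metaphyseal replicate 2 (0.99, adjusted p = 0.1056). In septoclasts it was 1.12 ± 0.33 (adjusted p = 0.0248), 2.11 without the *Pdgfra-GFP* library, and lost without metaphyseal replicate 1 (0.87, adjusted p = 0.1959) or 2 (1.23, adjusted p = 0.0782). After thinning to 2000 UMIs, 71.6%, 74.3% and 65.1% of marrow stromal cells held an *Adamts2* UMI (2935 of 3103 cells in the *Pdgfra-GFP* library were deep enough), against 0.647%, 0.233% and 3.46% of endothelial cells and 0 of 7, 0 of 7 and 2 of 51 erythroid cells. The last is 3.92% (0.479% to 13.5%, exact 95% binomial interval), so the endothelial share of 3.46% is not read as expression. Unthinned shares were 94.0%, 95.8% and 82.1% of marrow stromal cells, whose median depth was 5586, 5614.5 and 3667 UMIs, 0.924%, 1.28% and 5.23% of endothelial cells, and 13.7% of erythroid cells in the *Pdgfra-GFP* library.

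*Adamts10* (chr17:33524204-33553782, plus strand), whose product binds fibrillin, was led by both kinds of stromal cell. Metaphyseal stromal cells held it at 72.1, 73.5 and 65.3 CPM and marrow stromal cells at 70.2, 64.2 and 59.9 CPM, with overlapping ranges. The next population, endothelial cells at 34.3, 32.4 and 30.2 CPM, had a range below both, osteoblasts held 27.9, 24.5 and 27.3 CPM, and chondrocytes held 8.39, 12.45 and 18.2 CPM. The log2 difference was 1.06 ± 0.15 (SE) in metaphyseal stromal cells (adjusted p = 1.622e-05), 0.92 ± 0.14 in marrow stromal cells (adjusted p = 9.157e-06), 0.60 ± 0.15 in osteoblasts (adjusted p = 0.00236) and -0.84 ± 0.19 in chondrocytes (adjusted p = 0.000864; -1.50 without the *Pdgfra-GFP* library). The osteoblast call rests on the scaling: without scaling factors the value was -0.30 (adjusted p = 0.0831), and the osteoblast CPM was below the endothelial CPM in each library. The mean level in metaphyseal stromal cells was 70.3 ± 4.36 CPM (SD, n = 3).

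*Adamts6* (chr13:104287835-104496695, plus strand), the close relative of *Adamts10*, was near the limit of detection. Osteoblasts held 9, 14 and 18 UMIs (3.69, 7.30 and 1.25 CPM), chondrocytes 2, 2 and 41 UMIs (3.36, 2.77 and 2.96 CPM) and endothelial cells 30, 30 and 2 UMIs (4.43, 5.46 and 1.26 CPM). Fibroblasts held 11 UMIs (5.43 CPM), marrow stromal cells 2, 1 and 2, and mural cells 0 in each library. The log2 differences of 2.14 ± 0.57 (SE) in osteoblasts (adjusted p = 0.00419) and 2.10 ± 0.59 in chondrocytes (adjusted p = 0.00677) are set against populations without UMIs and depend on the prior count of the fit. Without scaling factors the osteoblast value was 1.32 and no longer passed (adjusted p = 0.1015). *Adamts6* was the 1 gene of the 9 called higher in chondrocytes, a call lost in the DESeq2 test and without library as a block. In near-empty barcodes *Adamts6* stood at 4.19, 4.11 and 1.20 CPM. This was above chondrocytes in both metaphyseal libraries and above osteoblasts in metaphyseal replicate 1.

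*Adamts12* (chr15:11064790-11349231, plus strand), the COMP-cutting member, was highest in mural cells at 76.2, 46.2 and 55.5 CPM from 8, 6 and 22 UMIs. Marrow stromal cells, at 23.2, 24.4 and 15.1 CPM, came next, and the ranges did not overlap. Endothelial cells held 7.54, 10.2 and 3.77 CPM and chondrocytes 3.36, 2.77 and 3.61 CPM. The log2 difference was 2.39 ± 0.34 (SE) in mural cells (adjusted p = 1.532e-05), -1.02 ± 0.24 in endothelial cells (adjusted p = 0.00108) and -1.27 ± 0.28 in chondrocytes (adjusted p = 0.000668; -2.14 without the *Pdgfra-GFP* library). The marrow stromal difference of 0.63 ± 0.18 (adjusted p = 0.00766) was lost without metaphyseal replicate 1 (0.63, adjusted p = 0.0554) or 2 (0.62, adjusted p = 0.0501). The metaphyseal stromal difference of -1.02 ± 0.27 (adjusted p = 0.00946) was lost without metaphyseal replicate 1 (-0.97, adjusted p = 0.0726) and without the *Pdgfra-GFP* library (-0.55, adjusted p = 0.4992).

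Septoclasts lie beside metaphyseal stromal cells at the cartilage front, and both populations were compared directly. Of the 9 genes, *Adamts10* was the 1 that passed the test, at 31.1, 21.9 and 28.6 CPM in septoclasts against 72.1, 73.5 and 65.3 CPM in metaphyseal stromal cells. The groups did not overlap, and the log2 difference was -1.35 ± 0.27 (SE; adjusted p = 0.00325). The septoclast values rest on 5, 3 and 49 UMIs. Without metaphyseal replicate 2 the difference was -1.22 (adjusted p = 0.0679) and without the *Pdgfra-GFP* library -1.50 (adjusted p = 0.0955). By edgeR 0 of 9 and 0 of 8 tested genes then passed. An unadjusted p under 0.05 was then seen for 5 and 3 genes, *Adamts1* and *Adamts10* in both, beside 5 of 9 in the main fit. The share of all genes under this unadjusted threshold was not counted, so these counts are not read as differences. Without metaphyseal replicate 1 the call remained, and DESeq2 on all libraries also called 1 gene. The counts of 1 lower and 0 higher stand beside 1.86% lower and 1.79% higher of the 14874 genes. *Adamts1* was at 87.1, 102.1 and 40.8 CPM in septoclasts and 46.3, 53.2 and 21.5 CPM in metaphyseal stromal cells, higher in each library, with a log2 difference of 0.87 ± 0.27 that missed the threshold (adjusted p = 0.0921). Its septoclast values rest on 14, 14 and 70 UMIs in 3 of 13, 3 of 13 and 39 of 186 cells. The shares of cells with an *Adamts1* UMI were 23.1%, 23.1% and 21.0% in septoclasts and 26.6%, 25.0% and 10.7% in metaphyseal stromal cells. The share was thus higher in septoclasts in the *Pdgfra-GFP* library alone. In alternatives *Adamts1* passed with no filter on low counts and with septoclasts gated by *Fabp5* and *Mmp9*, and *Adamts4* passed with that gate. *Adamts4* and *Adamts12* differed by 0.88 ± 0.40 and 0.90 ± 0.45, and *Adamts5* and *Adamts9* by -0.44 ± 0.24 and -0.52 ± 0.22, with adjusted p of 0.3244, 0.3835, 0.4478 and 0.2584. A miss at these SEs does not show equal levels.

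Chondrocytes make the aggrecan-rich matrix that several of these proteases cut, and 7 of the 9 genes were lower in them. *Acan* and *Col2a1* are gate markers of chondrocytes, and *Comp*, which is not, had a log2 difference of 8.77 there. *Fbln1* is a gate marker of septoclasts. These gate markers are among the 14 genes counted below, so the gates bear on their calls in those populations. *Vcan*, the versican gene, was by contrast a stromal transcript: 420.8, 467.7 and 475.4 CPM in metaphyseal stromal cells, 230.2, 481.3 and 256.7 CPM in septoclasts and 1.68, 2.77 and 7.22 CPM in chondrocytes. Its log2 difference was 3.69 in metaphyseal stromal cells and 2.92 in septoclasts, both past the threshold, and these are the populations with the highest *Adamts9*. Of the same clade, *Adamts5* was also higher in both (1.30 and 0.80) but was highest in endothelial cells (2.77), where *Vcan* was lower. *Adamts1* was lower in metaphyseal stromal cells (-1.04) and without a call in septoclasts (-0.05). *Adamts4* and *Adamts15* had no call in either. A link of these genes to *Vcan* was not tested. Of 14 substrate and cofactor genes, 6 were higher and 0 lower in metaphyseal stromal cells, beside 11.1% and 4.40% of all genes. In chondrocytes 5 were higher and 7 lower, beside 23.0% and 15.2%, and in septoclasts 2 were higher and 4 lower, beside 7.31% and 3.44% (4 and 0 without scaling factors). In osteoblasts 7 were higher and 2 lower, beside 23.4% and 17.0% (6 and 5 without scaling factors), in marrow stromal cells 4 and 5, beside 25.1% and 14.6%, and in mural cells 2 and 4, beside 6.69% and 4.82% (3 and 2 without scaling factors). In endothelial cells 0 were higher and 14 lower, beside 29.1% and 18.2%. In osteoblasts the higher ones included *Col1a1* (log2 difference 7.48) and *Col1a2* (6.53), the procollagens that ADAMTS2 processes.

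Within chondrocytes, 63 hypertrophic cells (*Col10a1*, *Ihh*) of the *Pdgfra-GFP* library held *Adamts1* at 65.4 CPM (49.9 to 84.2, exact 95% Poisson interval). The 147 superficial cells (*Prg4*, *Cilp*) held 4.81 CPM (1.31 to 12.3) and the 390 *Efemp1* cells 3.68 CPM (1.96 to 6.29). *Adamts5* was at 6.54, 9.62 and 3.68 CPM in the same 3 groups, with overlapping intervals. In the metaphyseal libraries only replicate 1 had a group of 10 or more such cells, 11 hypertrophic cells with 4 *Adamts1* UMIs, or 34.5 CPM (9.40 to 88.4).

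Among the genes that hold these proteases in check, *Timp3*, the main ADAMTS inhibitor, was at 468.0, 469.9 and 601.6 CPM in endothelial cells and 695.5, 323.3 and 153.9 CPM in mural cells. Its log2 difference was 2.37 in endothelial, 1.50 in mural and 0.69 in chondrocyte sums, and -2.73 in marrow stromal cells and -3.60 in osteoblasts, all past the threshold. The clearance receptor gene *Lrp1* ran the other way, with -6.24 in endothelial cells and 1.08 in marrow stromal cells. The chondrocyte value of *Timp3* was 0.38 without scaling factors and no longer passed (adjusted p = 0.3102). Of the 8 genes of inhibition, clearance and activation, 6 were higher and 0 lower in chondrocytes, beside 23.0% and 15.2% of all genes, and 1 was higher and 5 were lower in endothelial cells, beside 29.1% and 18.2%. In osteoblasts 5 were higher and 3 lower, beside 23.4% and 17.0% (2 and 3 without scaling factors), and in marrow stromal cells 2 and 3, beside 25.1% and 14.6%. In septoclasts 2 were higher and 2 lower, beside 7.31% and 3.44% (4 and 1 without scaling factors). In metaphyseal stromal cells 1 was higher and 0 lower, beside 11.1% and 4.40% (2 and 0 without scaling factors). In mural cells 1 was higher and 3 were lower, beside 6.69% and 4.82% (1 and 2 without scaling factors). Without scaling factors the counts were 5 and 0 in chondrocytes and 3 and 3 in marrow stromal cells. *Pcsk6*, a convertase, had a log2 difference of 4.96 in osteoblasts and 3.10 in chondrocytes.

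Of 9 further ADAMTS genes 5 were tested and 4 (*Adamts8*, *Adamts13*, *Adamts16*, *Adamts19*) had 5, 1, 19 and 14 UMIs in the 8 populations. *Adamts14*, a procollagen N-propeptidase like *Adamts2*, was higher in marrow stromal cells (log2 difference 2.16) and osteoblasts (2.24) and lower in endothelial cells (-4.72). By CPM the order was the reverse, with 9.74, 17.2 and 11.3 CPM in marrow stromal cells and 6.97, 6.78 and 5.81 CPM in osteoblasts. *Adamts3*, also of this kind, was higher in chondrocytes (2.91), where *Adamts2* was lower. The chondrocyte value rests on 0, 4 and 68 UMIs (0, 5.53 and 4.91 CPM). In the metaphyseal libraries marrow stromal cells held more *Adamts3* than chondrocytes, at 2.69 and 5.74 CPM. *Adamts7*, which like *Adamts12* cuts COMP, was higher in mural (2.07), septoclast (1.52) and endothelial cells (1.38) and lower in chondrocytes (-3.12). Its mural value rests on 2, 4 and 7 UMIs and its septoclast value on 2, 1 and 25 UMIs. *Adamts18* was at 6.43, 7.82 and 6.08 CPM in metaphyseal stromal cells and at 0 UMIs in septoclasts of each library. By the limit of 3 counts these zeros allow up to 18.7, 21.9 and 1.75 CPM. A lower septoclast level is thus seen in the *Pdgfra-GFP* library and could not be detected in the metaphyseal libraries. *Adamts17* was at 6.43, 9.39 and 9.30 CPM in metaphyseal stromal cells and at 0, 0 and 2 UMIs in septoclasts. Of the 5 tested genes, 2 were lower and 0 higher in septoclasts than in metaphyseal stromal cells, beside 1.86% and 1.79% of all genes. Among 7 ADAMTS-like genes, which lack the protease domain, 6 were tested. In marrow stromal cells 4 were higher, among them *Adamtsl3* (4.41) and *Thsd4* (3.59), and 0 lower, beside 25.1% and 14.6% of all genes. In endothelial cells 2 were higher, *Adamtsl2* (5.07) among them, and 4 were lower, beside 29.1% and 18.2%. *Thsd4* was also lower in septoclasts than in metaphyseal stromal cells (-2.01), at 12.45, 0 and 5.25 CPM against 16.7, 14.1 and 24.8 CPM. The septoclast values rest on 2, 0 and 9 UMIs. Of the 6 genes, 1 was lower and 0 higher in this comparison, beside 1.86% and 1.79% of all genes. Without scaling factors 0 were lower.

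The genes whose levels ran most like each member are given as a description over 22 library and population sums, which share libraries and depth. By Pearson's r of log2(CPM + 1), the nearest were *Prrx1* for *Adamts2* (0.966), *Adam12* for *Adamts9* (0.939), *Hoxb4* for *Adamts4* (0.928), *Dennd6a* for *Adamts1* (0.919) and *Cxcl12*, itself a gate marker, for *Adamts10* (0.903). They were *Afdn* for *Adamts5* (0.897), *Enpep* for *Adamts12* (0.874), *Tarsl2* for *Adamts6* (0.851) and *Prkar1b* for *Adamts15* (0.821). No other member was among the 3 nearest genes of any member.

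Not every UMI lay in a named population. The 8 populations held 58.9% to 88.6% of the cells' UMIs of each member in the metaphyseal libraries and 66.4% to 78.7% in the *Pdgfra-GFP* library, leaving aside *Adamts20*, and the rest lay in cells that met no gate or several, or that were gated as haematopoietic or erythroid (at most 90 UMIs of a gene in a library, *Adamts2* in the *Pdgfra-GFP* library). *Adamts2* had 966, 831 and 1515 UMIs in cells that met several gates. In near-empty barcodes *Adamts5* stood at 199.6, 221.5 and 50.6 CPM and *Adamts2* at 161.0, 182.7 and 155.4 CPM. *Adamts5* in mural cells and *Adamts2* in endothelial cells stood below these levels in each library. Populations called higher could also stand at or below near-empty levels. *Adamts5* in septoclasts and marrow stromal cells did so in both metaphyseal libraries, though not in the *Pdgfra-GFP* library, and *Adamts5* in metaphyseal stromal cells in metaphyseal replicate 2. *Adamts9*, at 93.5, 93.2 and 34.8 CPM in near-empty barcodes, was close to its endothelial level in each library. *Adamts1*, at 127.5, 127.9 and 23.8 CPM, was above the mural level of metaphyseal replicate 2. *Adamts10*, at 62.4, 63.0 and 43.6 CPM, was above every population but both kinds of stromal cell. The part of such free RNA in the levels of cells was not tested.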

How the data were processed

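Cells of 3 libraries were profiled with the 10x Genomics Chromium 3′ assay. The deposited values are UMI counts per gene and barcode, which the authors made with STARsolo (STAR 2.7.3a, after fastp 0.20) on mm10, with no normalization. Barcodes with at least 1500 detected genes (metaphyseal libraries) or 1000 (*Pdgfra-GFP*), at most 15% mitochondrial and 30% ribosomal UMIs were kept, giving 2382, 2004 and 11242 cells. A cell entered a population when at least 3 or 4 of its 4 to 7 marker genes were on and no other gate was met. The exception was a cell that met both the septoclast and the metaphyseal stromal gate, which was placed with the septoclasts. Gate thresholds were set after the marker distributions were seen, and the members and gene lists were chosen with earlier results of these data known. Doublets called by Scrublet (scanpy 1.11.5; 26, 17 and 163 cells) were kept and removed in an alternative. UMIs were summed over each library and population of at least 10 cells (22 sums) and tested with edgeR 4.0.16 (R 4.3.3): TMM, quasi-likelihood F test, library as a block, Benjamini-Hochberg adjustment over 14874 genes, threshold 0.05. The block is set by the design, since populations of a library come from 1 suspension; deviations of septoclasts and metaphyseal stromal cells of the same library correlated at 0.07, 0.07 and 0.33. The edgeR step was tested on simulated data. The text names the 10 chosen genes, examples from the fixed lists, and for each gene the nearest by Pearson's r. Poisson and binomial intervals (scipy 1.17.1) cover counting error only, and 3 UMIs corresponded to 0.208 CPM in the deepest sum. Positions follow GRCm38 with Gencode M21; promoters were matched for 5 of 10 genes. Alternatives covered normalization, DESeq2 1.42.0, filters, the block, gates, doublets and each library left out.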

Additional observations from a re-analysis of the deposited data

How the results depend on the processing

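Of the 41 calls against the other populations, 25 held in every alternative that gave a value, 16 were lost or turned in at least 1, and 11 of these without at least 1 library. Of 1013 member values computed under the alternatives, 49 lost and 23 gained a call, and 2 turned direction, both in osteoblasts without scaling factors: *Adamts9* (-0.52) and *Adamts10* (-0.30). The smaller totals that TMM gives osteoblasts set this by construction. The count of calls ran from 30 to 43, and from 32 to 37 with each library left out. These counts are over unlike numbers of values. Septoclasts dropped out with at least 20 cells in a sum or 1 more marker in each gate. Without the *Pdgfra-GFP* library, and without the fibroblast sum, 8 genes were tested. The count of calls was 30 without the replicate block, where 11 values lost their call, the *Adamts1* value in metaphyseal stromal cells among them (-0.95, adjusted p = 0.2228 by edgeR). Leaving out the fibroblast sum and leaving out the scaling factors were chosen after seeing the data and gave 40 and 43 calls.

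For septoclasts against metaphyseal stromal cells the count of 1 became 3 with no filter on low counts, where *Adamts1* and *Adamts15* were added. The count was also 3 with septoclasts gated by *Fabp5* and *Mmp9*, where *Adamts1* and *Adamts4* were added. It ran from 0 to 1 with each library left out, 0 by edgeR without metaphyseal replicate 2 or the *Pdgfra-GFP* library. There 5 of 9 and 3 of 8 tested genes had an unadjusted p under 0.05, beside 5 of 9 in the main fit. The share of all genes under this unadjusted threshold was not counted. The cause of these lost calls was not tested. No value could be had with at least 20 cells in a sum or 1 more marker in each gate, which left too few septoclasts. Sums of 13 septoclasts and 17 mural cells in each metaphyseal library limit precision, and *Adamts6*, *Adamts15* and *Adamts20* rest on few UMIs in most populations.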
